A study of Sus scrofa with 17 samples.

Results

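The genes described here are those carried by the pig mitochondrial chromosome. They were taken as the run of 37 consecutive Ensembl gene identifiers that covers this chromosome in the deposited count table, which makes 37 of its 35670 genes. Of these, 13 carry a symbol in the table, and they are the 13 protein genes of mitochondrial DNA. The other 24 have an identifier only. RefSeq lists 2 ribosomal RNA genes and 22 transfer RNA genes on this chromosome besides the protein genes, but no source used here says which of the 24 identifiers is which, so these are described by number and not by role.

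The samples were heart muscle from the right ventricle of pigs (Sus scrofa) under pressure overload, a model in which this chamber pumps against raised resistance. The multidose group (n = 7) received repeated injections of umbilical cord blood mononuclear cells into the heart muscle, the single dose group (n = 5) received these cells once, and the vehicle control group (n = 5) received the carrier. All 17 animals had the overload, so there is no group without it. Each library is 1 animal, and doses, harvest times, sex and weight per animal were not given in the labels.

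Library totals ran from 21754800 to 61144663 counts. Of 15 cardiomyocyte markers 13 were tested and none was at 0 in all libraries; their summed level was 74468 to 102583 CPM (read counts scaled to the library total) in the multidose group, 72733 to 90060 CPM in the single dose group and 56528 to 87230 CPM in controls. Library names begin with M1 in 5 dosed animals (multidose 1 to 4 and single dose 1) and with M8 or M9 in the other 12, which include all 5 controls. What these names denote is not stated in the labels. Across all genes this split gave many more calls than the treatment did, and 4 of the 5 M1 libraries had 21754800 to 24356210 counts where all others had at least 40621934, so the results are also given by name class. Separately, 6 libraries, 4 of them M1, lack the suffix _R that the others carry; the 2 such libraries outside M1 are multidose 5 and control 3.

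Mitochondrial DNA is transcribed from both strands as long RNAs that run through several genes. Enzymes that cut out the transfer RNAs release the messenger and ribosomal RNAs between them, so the genes of a strand share a promoter and differ in level mainly through processing and decay. All 13 proteins are core subunits of the respiratory chain or ATP synthase and assemble with many more subunits made from nuclear genes. Heart muscle is among the tissues richest in mitochondria, and its ventricles hold large amounts of these transcripts.

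The 13 protein genes fall into 4 enzymes. Complex I, which takes electrons from NADH, contains ND1, ND2, ND3, ND4, ND4L, ND5 and ND6. CYTB is the cytochrome b of complex III, COX1, COX2 and COX3 form the catalytic core of cytochrome c oxidase (complex IV), and ATP6 and ATP8 belong to the membrane part of ATP synthase (complex V). In the RefSeq annotation of Sscrofa11.1, the build named by the submitters, the genes lie on chromosome MT in the order ND1 (MT:3922-4876), ND2, COX1 (MT:6511-8055), COX2 (MT:8203-8890), ATP8 (MT:8959-9162), ATP6 (MT:9120-9800), COX3 (MT:9800-10583), ND3 (MT:10653-10998), ND4L (MT:11069-11365), ND4 (MT:11359-12736), ND5 (MT:12935-14755), ND6 (MT:14739-15266) and CYTB (MT:15342-16481). ATP8 and ATP6 overlap by 43 bases, ND4L and ND4 by 7, and ND5 and ND6 by 17. ATP8 with ATP6 and ND4L with ND4 are known to share 1 messenger RNA each. ND6 is the protein gene encoded on the opposite strand. The strand setting of the counting is not given in the sources used here, so reads from ND6 cannot be told apart from antisense RNA of its locus.

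Per kilobase of gene, the levels spanned more than 2 orders of magnitude. COX1 stood first with a mean of 41093 ± 7171 CPM per kilobase (SD, n = 17 libraries). COX3 followed at 36199 ± 7612 and ATP6 at 36080 ± 9810 CPM per kilobase; COX3 was above ATP6 in 12 of 17 libraries, and these neighbours did not differ beyond their spread. COX2 averaged 23457 CPM per kilobase and was below ATP6 in all 17 libraries. CYTB (11738 CPM per kilobase) and ND4 (9675 CPM per kilobase) came next, each above its lower neighbour in all 17 libraries. ND4L averaged 6296 and ND5 6205 CPM per kilobase, with ND4L above ND5 in 10 of 17 libraries. ND3 (5274 CPM per kilobase) was above ND2 (4574 CPM per kilobase) in 12 libraries. ATP8 (2496 CPM per kilobase) and ND1 (1926 CPM per kilobase) were near the bottom. ND6 was last in all 17 libraries at 252 ± 132 CPM per kilobase.

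Genes that share a messenger RNA did not have equal levels per kilobase. ATP6 was 9.30 to 23.9 times ATP8 over the 17 libraries, and ND4 was 1.26 to 2.15 times ND4L. ATP8 and ND4L are the shortest of the 13 genes, at 204 and 297 bases, and part of each overlaps its partner; how the counting treated reads in such overlaps is not given in the sources used here. Levels per kilobase are therefore least certain for these genes. Between the overlapping opposite-strand pair, ND5 was 11.14 to 37.9 times ND6. COX1 per kilobase was 85.9 to 286 times ND6.

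**Figure D1:**
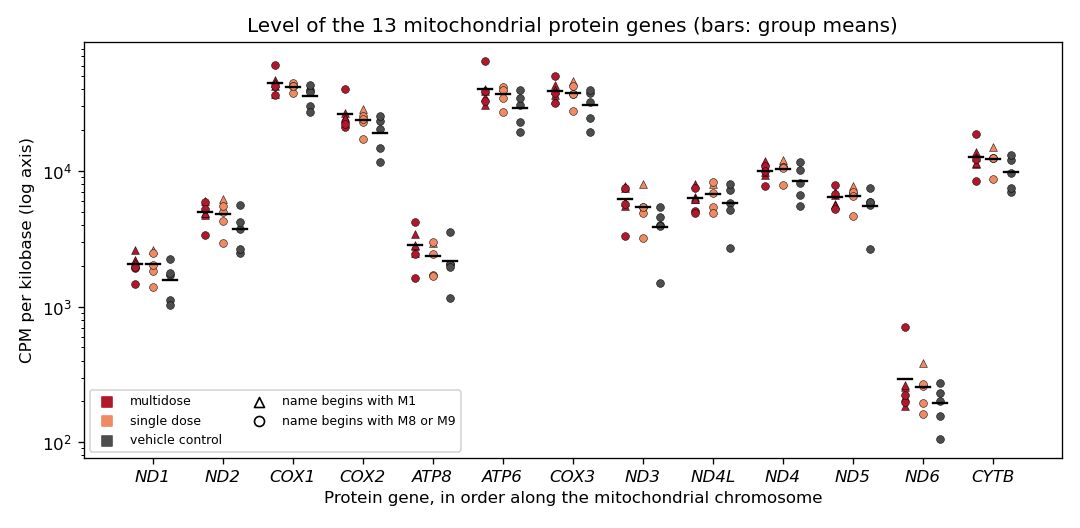
Level of each mitochondrial protein gene in CPM per kilobase (log axis), genes in their order along the chromosome, with multidose, single dose and vehicle control libraries from left to right within a gene; horizontal bars are group means, triangles are libraries named M1 and circles those named M8 or M9. COX1, COX3 and ATP6 are at the top and ND6 is at the bottom, at a mean of 252 CPM per kilobase.

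The 37 genes together took 12.5% to 23.6% of all counts in a library, and nearly all of it came from the 13 protein genes, since the 24 genes without a symbol took 0.0940% to 0.507%. In the multidose group the share was 16.7%, 18.2%, 20.4%, 20.5%, 23.6%, 16.6% and 18.7% in animals 1 to 7. In the single dose group it was 21.5%, 19.4%, 18.9%, 15.9% and 19.4% in animals 1 to 5. In controls it was 14.1%, 16.2%, 12.5%, 16.8% and 20.4% in animals 1 to 5. The multidose mean was 19.3% ± 2.47 (SD, n = 7), the single dose mean 19.0% ± 2.01 (SD, n = 5) and the control mean 16.0% ± 2.96 (SD, n = 5). Controls 1 and 3 were below every dosed animal, while control 5 was within the dosed range, so the groups overlap.

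Within the M8 and M9 libraries alone the multidose share averaged 19.6% ± 3.60 (SD, n = 3) and the single dose share 18.4% ± 1.67 (SD, n = 4), against the same 5 controls. Among dosed animals it was 19.5% ± 1.94 (SD, n = 5) in M1 libraries and 18.9% ± 2.48 (SD, n = 7) in M8 and M9 libraries, a gap smaller than either spread. Cytochrome oxidase genes held the largest part of it, 56.3% to 64.4% of the mitochondrial protein-gene counts of a library. Complex I genes held 15.5% to 22.4%, ATP synthase genes 11.98% to 16.7% and CYTB 5.83% to 7.99%.

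**Figure D2:**
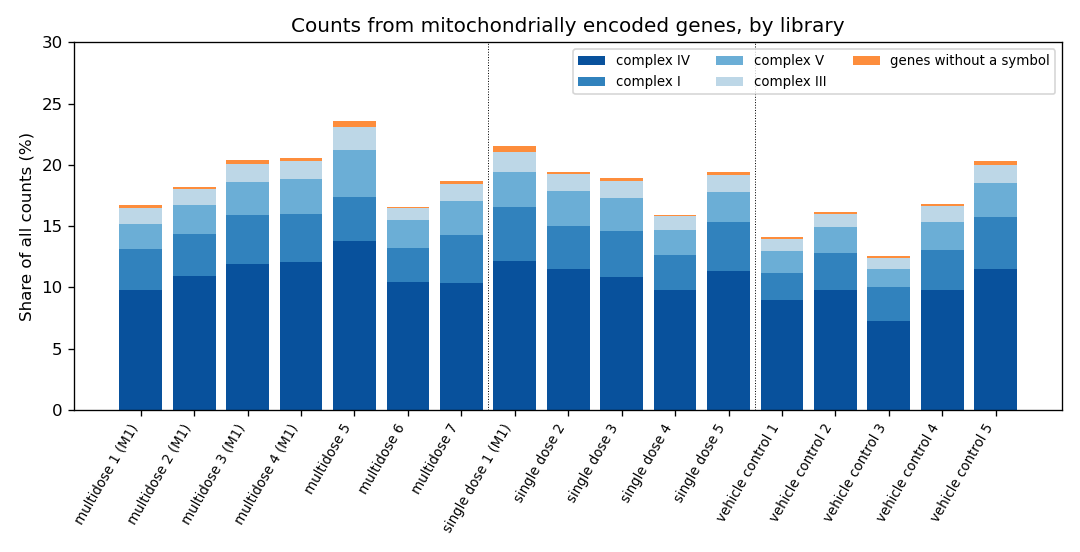
Share of all counts from mitochondrially encoded genes in each library (%), stacked by respiratory complex with the 24 genes without a symbol on top; M1 marks libraries whose name begins so, and dotted lines divide multidose, single dose and vehicle control. Controls 1 and 3, at 14.1% and 12.5%, are the lowest, and multidose 5, at 23.6%, is the highest.

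Tests of single genes used the 21 of the 37 genes that passed the low-count filter, the 13 protein genes and 8 genes without a symbol. The other 16 did not pass; the highest count any of them had in a library was 79, and 1 had no count at all. The multidose group was compared with vehicle controls first, the contrast that asks what repeated dosing does. No mitochondrial gene passed an adjusted p of 0.05 (edgeR quasi-likelihood test, two-sided, adjusted over 15884 genes). No gene of the whole table did either, so the share called was 0%. At an unadjusted p under 0.05 stood 4 of the 21 mitochondrial genes, all higher, beside 6.74% of all genes that were higher at this level. DESeq2 and limma-voom also called no mitochondrial gene in this comparison, although DESeq2 called 8 genes elsewhere in the table. Under an unadjusted p of 0.05 DESeq2 had 7 of the 21 mitochondrial genes, beside 2265 of all 15875 genes it tested. For limma-voom it was 2 of the 21, beside 2636 of all 15884.

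All 13 protein genes had a fold change above 0, as did 49.3% of all genes tested. Their median log2 fold change was 0.39, against -0.01 over all genes, and they ranged between 0.13 and 0.67. None of the 13 separated the 2 groups completely; over all genes 0.145% did so with the multidose group higher. The 13 genes lie on the same few precursor RNAs, so they do not count as 13 independent observations. In bulk tissue, fewer cells of a type and less RNA per cell cannot be told apart. Of the 2 controls low in mitochondrial counts, control 1 was also the lowest library in summed cardiomyocyte markers, at 56528 CPM, while control 3 had 79256 CPM, within the range of the other controls. The cardiomyocyte markers had a median log2 fold change of 0.31, with 11 of 13 above 0, and T and NK cell markers one of -0.65, with 0 of 10 above 0. No member of either list passed the adjusted threshold. Their part in the mitochondrial values was not tested.

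ND3 had the largest fold change of the 13. Its level was 1150 to 2672 CPM in the multidose group with a median of 2041 CPM, against 1380, 1355, 517, 1580 and 1882 CPM in controls 1 to 5. Of the 7 multidose animals 6 were above every control, and multidose 6 was below 4 of the 5. Control 3 was the lowest library by a wide margin. The log2 fold change was 0.67 with an SE of 0.28 (edgeR adjusted p = 0.384), and it was 0.47 without control 3.

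COX2, which carries the copper centre that accepts electrons from cytochrome c, was the other protein gene under an unadjusted p of 0.05. It ranged over 14638 to 27707 CPM in the multidose group with a median of 16988 CPM, against 10226, 14034, 8069, 15972 and 17641 CPM in controls 1 to 5. Controls 1, 2 and 3 were below every multidose animal, while controls 4 and 5 were inside the multidose range. The log2 fold change was 0.46 with an SE of 0.21 (edgeR adjusted p = 0.394).

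COX1, which holds the oxygen-reducing site and is the most abundant transcript of the set, had 56263 to 93388 CPM in the multidose group with a median of 65746 CPM. Controls 1 to 5 had 46633, 60828, 42268, 58656 and 66181 CPM. The groups overlap, with 3 multidose animals above every control and controls 1 and 3 below every multidose animal. Its log2 fold change of 0.32 had an SE of 0.17, the smallest SE of the set (edgeR adjusted p = 0.427).

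ND6 had the largest SE. It ranged over 98.3 to 372 CPM in the multidose group with a median of 118.5 CPM, against 55.7, 106, 144, 82.4 and 123 CPM in controls 1 to 5. The multidose maximum was animal 5, and the next multidose animal, number 3, was at 139 CPM, inside the control range. The log2 fold change was 0.59 with an SE of 0.33 (edgeR adjusted p = 0.449), and 0.21 without multidose 5.

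The other complex I genes, ND1, ND2, ND4, ND4L and ND5, had log2 fold changes between 0.13 and 0.43, lowest for ND4L and highest for ND2. ATP6 had 0.45, ATP8 and COX3 0.39 and 0.34, and CYTB 0.36. For ND4L the direction was not stable: without control 1 it was -0.06, and it was also just below 0 in the M8 and M9 libraries alone. For the remaining 12 it stayed above 0 on leaving out each library in turn and in the 14 alternative analyses. The median of all 13 was 0.36 in M8 and M9 libraries alone, 0.32 with a term for the suffix _R and 0.12 in the libraries with that suffix.

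**Figure D3:**
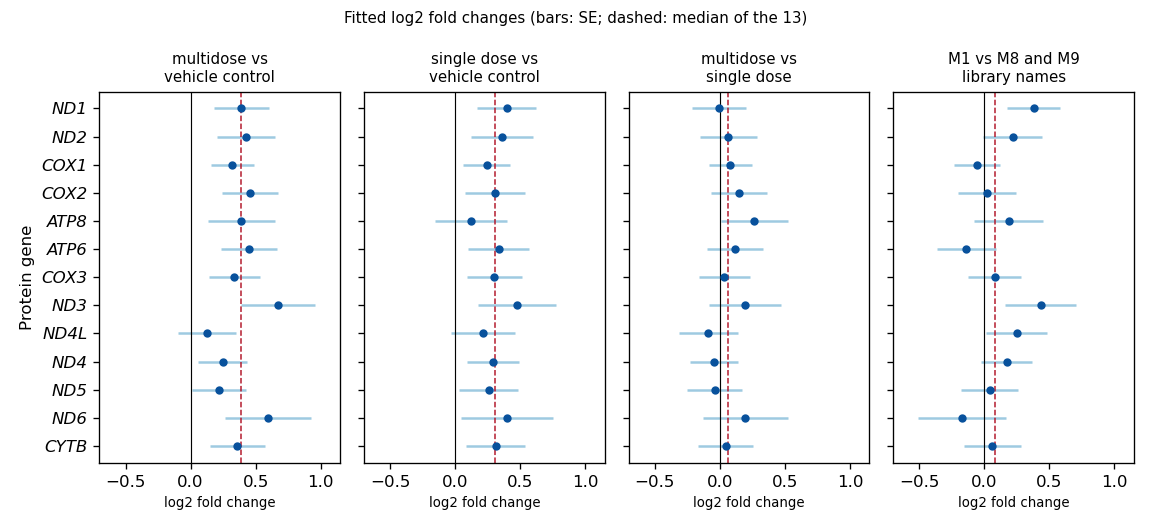
Fitted log2 fold change of each mitochondrial protein gene (points) with its SE (bars) in the 4 comparisons, first-named group over second; the dashed line is the median of the 13 genes. All 13 lie above 0 for both dosing schedules against vehicle control, and none passed the adjusted threshold in any panel.

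The single dose group was compared with the same controls, so these values share their reference with those above. No mitochondrial gene passed the adjusted threshold (edgeR, 0% of all genes called), and none was under an unadjusted p of 0.05, where 836 genes of the table were. All 13 protein genes were above 0, as were 50.4% of all genes. Their median log2 fold change was 0.31 and they ranged between 0.12 for ATP8 and 0.48 for ND3, with edgeR adjusted p-values of 0.891 and more. ND3 had 2766, 1885, 1700, 1106 and 1885 CPM in single dose animals 1 to 5, against 517 to 1882 CPM in controls. Single dose 4 was the lowest of its group for all 13 protein genes. COX1 had 67354, 68623, 65587, 57685 and 65358 CPM in animals 1 to 5, with a log2 fold change of 0.24 and an SE of 0.18 (edgeR adjusted p = 0.891). ATP8 was below 0 when control 1 was left out, at -0.04.

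Between the multidose and single dose groups no mitochondrial gene passed (edgeR, 0% of all genes called) and none was under an unadjusted p of 0.05. Of the 13 protein genes 9 were above 0, beside 50.5% of all genes. The median log2 fold change was 0.07, between -0.09 for ND4L and 0.27 for ATP8, with SEs of 0.17 to 0.33. Each value lay within its SE of 0 except that of ATP8, whose SE was 0.26.

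The name classes were compared with a term for M1 in the fit beside the groups. Since all controls are M8 or M9, the term rests on the 12 dosed animals. Over all genes this contrast called 14.0%, made up of 5.92% higher and 8.06% lower in M1 libraries (edgeR, adjusted p under 0.05). The called genes numbered 2220 with all libraries, 858 without single dose 1, 1247 without multidose 6 and 1450 without multidose 5. None of the 21 mitochondrial genes tested was among them. Of these 21, 3 were under an unadjusted p of 0.05, beside 4756 of all 15884 genes tested. The 13 protein genes had a median log2 fold change of 0.08, with 10 of 13 above 0 beside 48.6% of all genes. This median was 0.27 without multidose 5 and -0.05 without single dose 1. No protein gene separated dosed M1 from dosed M8 and M9 animals, where 4.19% of all genes did so with M1 higher.

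Within this set ND3 and ND1 had the highest values for M1. ND3 had 2041, 1918, 2672, 2612 and 2766 CPM in the 5 M1 libraries, against 1106 to 2597 CPM in the 7 dosed M8 and M9 libraries with a median of 1885 CPM. The log2 fold change was 0.43 with an SE of 0.28 (edgeR adjusted p = 0.305). ND1, the subunit next to the ubiquinone site of complex I, had 2078, 2102, 2519, 1998 and 2513 CPM in M1 libraries, against 1325 to 2392 CPM in dosed M8 and M9 libraries. Its log2 fold change was 0.38 with an SE of 0.21 (edgeR adjusted p = 0.225). limma-voom with quality weights called both, at 0.71 for ND3 (adjusted p = 0.0130) and 0.50 for ND1 (adjusted p = 0.0170). With 2 genes without a symbol it called 4 mitochondrial genes, beside 4553 of all 15884 genes tested. The calls of ND3 and ND1 thus depend on the tool, and this tool called many more genes over the whole table than edgeR did. COX1 (-0.06), ATP6 (-0.14) and ND6 (-0.17) were below 0 in the edgeR fit. For ND6 the sign turned without multidose 5, to 0.39.

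Within the mitochondrial protein-gene counts, COX1 took 31.3% to 39.6% and COX3 13.5% to 16.9% over the 17 libraries. A few libraries stood apart in this make-up. ND6 took 0.139% in multidose 5 and 0.127% in control 3, against 0.0467% to 0.0950% in the other 15 libraries. Control 3 also had the highest share of ND5, 9.05%, and the lowest of ND3, 0.457%. Control 1 was the reverse for ND5, at 4.06%, and for ND4L, at 0.682% against 1.36% in control 3. Multidose 5 had the lowest shares of ND1, 0.691%, ND4L, 0.560%, and ND4, 5.602%, and the highest of ATP6, 16.4%. Multidose 5 and control 3 are the 2 libraries outside M1 without the suffix _R.

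Across dosed animals ND3 took 1.204%, 1.05%, 1.26%, 1.32% and 1.29% of the mitochondrial protein-gene counts in the M1 libraries multidose 1 to 4 and single dose 1. The dosed M8 and M9 libraries had 0.696% to 1.101%, so only multidose 7, at 1.101%, reached the range of the M1 animals. ND1 took 1.01% to 1.23% in M1 libraries, against 0.691% to 1.27% in dosed M8 and M9 libraries, where single dose 5 was the highest of all.

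**Figure D4:**
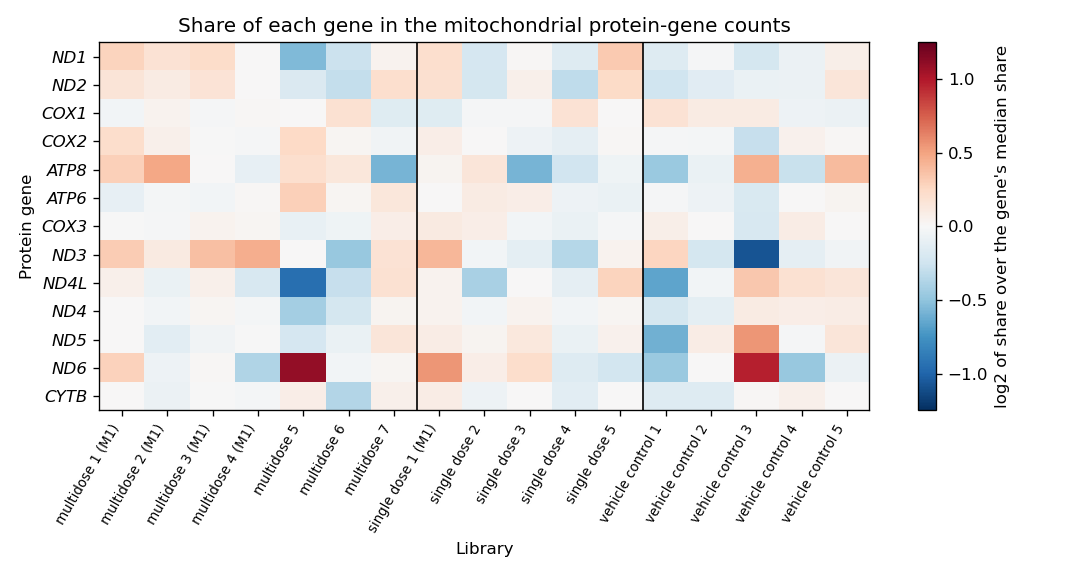
Share of each gene in the mitochondrial protein-gene counts of a library, as the log2 of the share over the gene's median share of the 17 libraries (red higher, blue lower), genes in chromosomal order; vertical lines divide multidose, single dose and vehicle control. ND6 is high in multidose 5 (0.139%) and control 3 (0.127%), and ND3 is low in control 3 (0.457%).

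Of the 8 tested genes without a symbol, 2 had most of the counts. ENSSSCG00000018063 had 709 to 4002 CPM in the multidose group, 745 to 2428 CPM in the single dose group and 428 to 2072 CPM in controls, and multidose 5 was again the maximum. ENSSSCG00000018061 had 485 to 1731, 394 to 1822 and 394 to 1328 CPM in the same order. Neither separated the groups. ENSSSCG00000018068 had 15.1 to 48.1 CPM in the multidose group with a median of 24.6 CPM, against 13.5, 16.5, 10.01, 18.1 and 17.5 CPM in controls, and 6 of 7 multidose animals were above every control. Its log2 fold change was 0.91 with an SE of 0.32 (edgeR adjusted p = 0.366). For M1 it had 22.6, 36.03, 48.1, 24.6 and 35.0 CPM against 9.38 to 34.4 CPM in dosed M8 and M9 libraries, with 0.79 and an SE of 0.27 (edgeR adjusted p = 0.0622). DESeq2 called this gene for M1 (adjusted p = 0.0351), as did limma-voom (adjusted p = 0.00112).

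ENSSSCG00000018076 was set by 1 animal. Multidose 5 had 109 CPM and the other 6 multidose libraries had 20.9 to 28.8 CPM, against 15.8 to 25.7 CPM in controls. The multidose log2 fold change was 0.84 with an SE of 0.38 (edgeR adjusted p = 0.388), and 0.25 without this animal. For M1 it was -0.88 with an SE of 0.34 (edgeR adjusted p = 0.0940), and -0.15 without multidose 5. It was called for M1 with a term for the suffix _R, at -1.09 (edgeR adjusted p = 0.0355). Without multidose 7 it was called too, at -1.05 (edgeR adjusted p = 0.0458). ENSSSCG00000018067 had the M1 log2 fold change furthest from 0 of the 21 genes, -1.18 with an SE of 0.48 (edgeR adjusted p = 0.108). Its count was as low as 2 in a library, and for multidose it had 0.36. ENSSSCG00000018064, ENSSSCG00000018077 and ENSSSCG00000018093 had at most 148, 55 and 43 counts in a library. Their multidose log2 fold changes were -0.03, 0.58 and 0.72, and those for M1 0.15, -0.25 and -0.68.

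The nuclear partners of these proteins were read from a list of subunits of complexes I, III, IV and V, of which 63 were tested. In the multidose comparison all 63 had a fold change above 0 with a median of 0.37, close to the 0.39 of the mitochondrial genes, and none passed. In the single dose comparison all 63 were again above 0, with a median of 0.25 beside 0.31. The summed level of the 13 mitochondrial genes over that of the 63 nuclear genes was 7.24 ± 1.705 (SD, n = 7) for multidose animals, 7.54 ± 0.67 (SD, n = 5) for single dose animals and 7.27 ± 0.72 (SD, n = 5) for controls. The control animals low in mitochondrial counts were also the lowest of their group in the nuclear subunits, at 19335 CPM in control 1 and 14828 CPM in control 3. Multidose 5 was the highest ratio, at 10.8, with 268073 CPM of mitochondrial and 24747 CPM of nuclear subunit RNA.

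The nuclear subunits were read by library name as well. In M1 libraries 10 of the 63 rose, 0 fell and 59 were above 0, beside 5.92% higher, 8.06% lower and 48.6% above 0 among all genes in this contrast. Their median log2 fold change was 0.35 beside 0.08 for the 13 mitochondrial genes, but the distance between these medians depended on the analysis. Without multidose 5 they were 0.38 and 0.27, and with limma-voom 0.42 and 0.32. The 10 were NDUFB1, NDUFB6, NDUFB9, NDUFC2, NDUFS4 and NDUFV2 of complex I, COX7A1 of complex IV and ATP5PF, ATP5MC2 and ATP5MG of ATP synthase. COX7A1, the muscle form of a small cytochrome oxidase subunit, had the largest of these changes, 1.13 (edgeR adjusted p = 0.00305). NDUFB1, an accessory subunit, rose by 0.90 (edgeR adjusted p = 0.0120). Summed, the nuclear subunits had 29320, 30131, 33604, 27649 and 31991 CPM in the M1 libraries, against 17142 to 27133 CPM in the 7 dosed M8 and M9 libraries, with no overlap. The mitochondrial genes had 169563 to 214813 CPM in M1 libraries, inside the 146625 to 268073 CPM of the dosed M8 and M9 libraries. The ratio was thus 6.40 ± 0.53 (SD, n = 5) in M1 libraries and 8.06 ± 1.32 (SD, n = 7) in dosed M8 and M9 libraries. The ranges overlapped through multidose 4, an M1 library with the suffix _R, at 7.13, and multidose 7, at 6.98. The difference between the nuclear and the mitochondrial change was not tested. The count of 10 depended on the analysis and on single libraries. The calls over all genes, 2220 in the main fit, also differed between these fits and are given in brackets. The subunit count was 42 with limma-voom (4553), 35 with no group term (3783) and 24 without the control libraries (2767). It was 20 with DESeq2 (3003), 16 with a term for the suffix _R (2736) and 6 in multidose libraries only (712). It was 1 without single dose 1 (858), 4 without multidose 6 (1247) and 5 without multidose 1 (1518). It was 6 without multidose 3 (1571) and 26 without control 3 (2745). COX7A1 stayed called on leaving out any of the 17 libraries, and NDUFB1 on leaving out any but single dose 1. In the libraries with the suffix _R, where 1 M1 library is left, no gene of the whole table was called for the name.

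**Figure D5:**
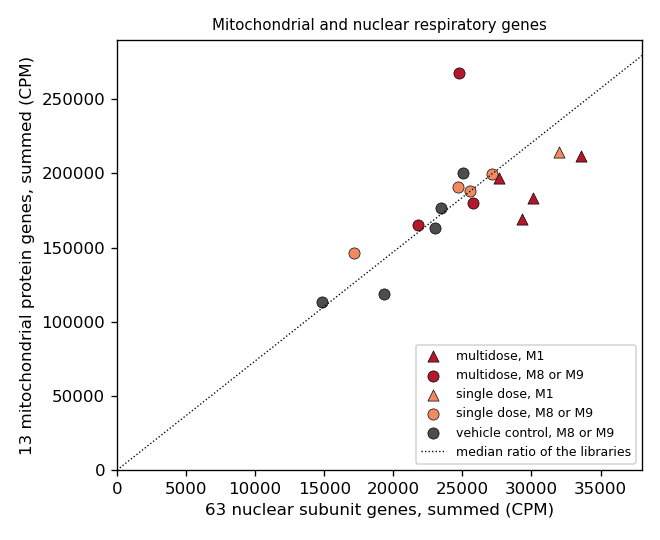
Summed level of the 13 mitochondrial protein genes against that of 63 nuclear subunit genes of the same complexes in each library, both in CPM and from 0; colours are groups, triangles M1 libraries and circles M8 or M9, and the dotted line has the median ratio of the 17 libraries. The 5 M1 libraries lie to the right and below the line, with ratios of 5.78 to 7.13, and multidose 5 lies far above it at 10.8.

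Cell type markers were also compared between the same name classes. Fibroblast markers summed to 5081 to 9006 CPM in M1 libraries, against 3191 to 6889 CPM in dosed M8 and M9 libraries, and 4 of 10 rose (COL3A1, DCN, PDGFRA and DPT), beside 5.92% of all genes. T and NK cell markers summed to 16.0 to 27.1 CPM, against 28.8 to 53.5 CPM, and 3 of 10 fell (CD3E, CD3D and CD8B), beside 8.06% of all genes. Cardiomyocyte markers summed to 76132 to 102583 CPM, against 72733 to 97070 CPM, and 0 of 13 passed. Other lists held calls too, beside the same 5.92% and 8.06% of all genes. Of Schwann and neural markers 2 of 5 rose and 1 fell (median log2 fold change 0.81), and of red cell markers 1 of 4 rose (median 1.79). Of endothelial markers 1 of 10 rose (median 0.05), of mural and smooth muscle markers 1 of 8 fell (median -0.18) and of adipocyte markers 1 of 4 fell (median -0.67). Of macrophage markers 0 of 9 passed. Their part in the mitochondrial and nuclear values was not tested.

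Mitochondrial transcription, RNA processing and translation depend on nuclear genes, which were read from 6 lists with 71 symbols, 69 of them tested. In the multidose comparison 0 passed, 44 of 69 were above 0 and the median log2 fold change was 0.07. In the single dose comparison 0 passed and the median was also 0.07. TFAM, which packages mitochondrial DNA and starts its transcription, had 32.3 ± 7.56 CPM in the multidose group (SD, n = 7) and 26.5 ± 4.81 CPM in controls (SD, n = 5), a log2 fold change of 0.28 (edgeR adjusted p = 0.483). The polymerase POLRMT had -0.28, the initiation factor TFB2M -0.06 and PPARGC1A, a coactivator of mitochondrial biogenesis, -0.31. PPRC1, a relative of it, had -0.41, and the receptor PPARA -0.54. MRPL12, a protein of the mitochondrial ribosome, had 0.40, and MTERF2, of the transcription termination factor family, 0.30. Among RNA processing genes, TRMT5, which modifies transfer RNAs, had 0.25 and TRMT10C, a subunit of the enzyme that cuts their 5′ ends, 0.21. SLIRP and LRPPRC bind each other and keep mitochondrial messenger RNAs stable. SLIRP had 0.67 with an SE of 0.25 (edgeR adjusted p = 0.370), while LRPPRC had 0.06. The RNA helicase SUPV3L1 had 0.23. POLG2, the accessory subunit of the DNA polymerase, had 0.24, SSBP1, which coats single-stranded DNA, 0.18, and the translation factors GUF1 and TSFM 0.30 and 0.25.

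For library names, 3 of these 69 genes rose in M1 libraries, 4 fell and the median was -0.03, beside 5.92% of all genes that rose and 8.06% that fell, so a smaller share of the machinery genes was called in each direction than of the table. The called members are given as single genes. SLIRP rose by 0.74 with an SE of 0.20 (edgeR adjusted p = 0.0222); it had 56.7 to 71.0 CPM in M1 libraries, against 28.0 to 48.7 CPM in dosed M8 and M9 libraries. TFAM rose by 0.47 (edgeR adjusted p = 0.0439) and GUF1 by 0.35 (edgeR adjusted p = 0.0261). POLRMT fell by 0.51 with an SE of 0.10 (edgeR adjusted p = 0.00614), at 14.7 to 16.5 CPM in M1 libraries, against a median of 21.5 CPM and a minimum of 18.9 CPM in dosed M8 and M9 libraries. MPV17, an inner membrane protein needed to maintain mitochondrial DNA, fell by 0.97, the initiation factor MTIF3 by 0.54 and PPRC1 by 0.70 (edgeR adjusted p = 0.0176, 0.0123 and 0.00187). LRPPRC, at -0.02, and PPARGC1A, at -0.29, did not pass, nor did TFB2M, PUS1, PNPT1, SLC25A33, PPARA and PPARGC1B. POLRMT and PPRC1 stayed called on leaving out any of the 17 libraries, MTIF3 on leaving out any but single dose 1 and MPV17 on leaving out any but multidose 6. SLIRP stayed called in 15 of these 17 fits, with an edgeR adjusted p of 0.126 without single dose 1, GUF1 in 14 and TFAM in 8. In multidose libraries only, SLIRP, TFAM, GUF1 and MTIF3 were not called (edgeR adjusted p = 0.0556, 0.165, 0.132 and 0.0691).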

How the data were processed

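Total RNA was isolated with TRIzol and sequenced on an Illumina NextSeq, per the labels' protocols. The authors deposited 1 table of raw read counts per Ensembl gene, not normalized. Tools in the submitters' processing notes are Subread 1.6.2, SAMtools 1.7, HISAT2 2.1.0, Trimmomatic 0.33 and FastQC 0.11.7, and the build is Sscrofa11.1. Not given in the sources used here are the strand setting, the annotation release, and how reads were handled that match overlapping genes or nuclear copies of mitochondrial DNA. The labels give neither a poly(A) selection nor a ribosomal RNA depletion, either of which would set how many ribosomal and transfer RNA reads remain.

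From these counts edgeR 4.0.16 (R 4.3.3) gave all fits: filterByExpr left 15884 of 35670 genes, libraries were scaled with TMM factors, and a robust quasi-likelihood model took 1 coefficient for each group over all 17 libraries. Tests were two-sided, with Benjamini-Hochberg adjustment over all genes tested and a threshold of 0.05. Name classes used the same fit plus a term for M1. CPM uses TMM-scaled totals, log2 CPM a prior count of 2, and CPM per kilobase the RefSeq gene length. The fitting code was tested on simulated data. DESeq2 1.42.0 and limma 3.58.1 were alternatives. Shares and sums over genes carry no p-value.

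Every mitochondrial gene that passed the low-count filter was named. For genes without a symbol, which values to give was chosen after their values were seen. Of nuclear genes, TFAM, POLRMT, TFB2M, LRPPRC, SLIRP and PPARGC1A were named always. So were the 2 with the smallest p per machinery list in the multidose and in the M1 comparison. Called members of the nuclear subunit, fibroblast and T and NK cell lists were named too. Those of the other cell type lists and of a list of RNAs made without a poly(A) tail were not. The genes and lists were chosen with earlier results of these data known. Of 256 list symbols in 21 lists, 226 matched a gene and 223 were tested. Same-numbered animals of different groups were not paired. All count columns of the table were used.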

Additional observations from a re-analysis of the deposited data

Results flagged for a closer look

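In all, 93 sets of values were screened for an animal far from the rest of its group, and 13 were found. A set was a gene's log2 CPM, its share of the mitochondrial protein-gene counts or the mitochondrial share of all counts, in 1 group. None of the 13 was in the mitochondrial share of all counts. Chance alone gives about 1 in 20 for a single set. The sets are not independent, since genes share libraries and precursor RNAs and 5 of the 13 are 1 animal, so no excess over chance can be read from the number. Multidose 5 was the highest of its 7 animals for ND6 (log2 CPM 8.54, the others 6.62 to 7.11), ATP6 (15.42), COX2 (14.76) and ENSSSCG00000018076 (6.77, the others 4.39 to 4.85), and for the share of ND6 (0.139%). Multidose 6 was the lowest of its group for ND2 (log2 CPM 11.78), ND3 (10.17) and the share of CYTB (5.83%). Single dose 4 was the lowest of its group for COX1 (log2 CPM 15.82). Control 3 was the lowest of its 5 animals for ND3 (log2 CPM 9.01) and for the share of COX2 (7.13%), and the highest for the share of ND6 (0.127%, the others 0.0467% to 0.0647%). Control 1 was the lowest for ND5 (log2 CPM 12.23).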

How the results depend on the processing

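No mitochondrial gene was called in the multidose, single dose or multidose against single dose comparison under any of 14 alternatives or on leaving out each library. Calls over all genes in the multidose comparison were 8 with DESeq2 and 1 with the replicate block, and in the single dose comparison 10 with DESeq2. On leaving out a library they ranged over 0 to 1 for single dose against vehicle control and 0 to 1 for multidose against single dose. ND4L against controls turned to -0.0094 in M8 and M9 libraries and -0.021 with a term for M1 names. In the suffix _R libraries ENSSSCG00000018061 turned to -0.18 and ENSSSCG00000018063 to -0.30 for multidose, and ATP8 to -0.0034 for multidose against single dose. limma-voom turned ATP8 to -0.026 for single dose and ND4L to 0.017 for multidose against single dose. On leaving out a library, ND4L ranged over -0.058 (without control 1) to 0.27 for multidose, ATP8 over -0.043 (without control 1) to 0.37 for single dose, and ND4L over -0.18 to 0.0042 (without single dose 5) for multidose against single dose.

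For M1 names, ENSSSCG00000018068 was the 1 mitochondrial gene called with upper-quartile scaling, DESeq2 or no group term. With a term for the suffix _R the 1 called was ENSSSCG00000018076, lower in M1. There were 4 called with limma-voom, and 0 to 1 on leaving out a library. All-gene calls were 4553 with limma-voom, 3783 with no group term, 712 in multidose libraries only, 0 in suffix _R libraries, where 1 M1 library is left, and 858 to 2745 on leaving out a library; the lowest counts were 858 without single dose 1, 1247 without multidose 6 and 1450 without multidose 5. ND6 turned to 0.33 with limma-voom and 0.072 with no group term, and ranged over -0.70 (without single dose 1) to 0.39 (without multidose 5). ENSSSCG00000018076 turned to 0.25 in suffix _R libraries. The cause of these changes was not tested.

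Replicate numbers were not taken as pairs, since no label gives a pairing. Deviations of same-numbered animals from their group means correlated at -0.16 to -0.01 between multidose and control animals (0 of 5 pairs over 0.1). They correlated at -0.06 to 0.14 between single dose and control animals (1 of 5) and -0.22 to 0.41 between multidose and single dose animals (3 of 5). The deviations still hold differences between name classes, so these correlations cannot show whether the numbers pair animals. With the replicate block the M1 comparison called 11 genes, none of them mitochondrial, none of the 63 nuclear subunits and none of the 69 machinery genes, so that COX7A1, NDUFB1, POLRMT, PPRC1, MTIF3 and the other subunit and machinery calls were lost; the medians were 0.57 for the 13 protein genes and 0.52 for the nuclear subunits, the reverse of their order without it. The planned share without the 2 ribosomal RNAs was not run, since no source used here says which genes these are; the 13 protein genes alone, added after seeing the data, as were the suffix _R and thinned analyses and the nuclear calls on leaving out a library, gave group means of 19.0%, 18.8% and 15.8% for multidose, single dose and control. Thinning all libraries to the shallowest total changed no mitochondrial call. Counting error is negligible for the protein genes, whose lowest count in a library was 2537, but not for the tested genes without a symbol, where it was as low as 2.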
